A study of Saccharomyces cerevisiae with 12 samples.

Results

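Gene expression in wild-type budding yeast at 5 hours of a course that its labels call stationary phase was compared with that at 0 and 3 hours. The comparison takes 3 of the 12 arrays of the series, the only wild-type arrays at those 3 times. Each of the 12 spotted arrays compared total RNA from a culture with a common reference, which the labels do not describe further. Wild type is the strain DBY8778, and the other 6 arrays are of a strain that lacks USV1 (YPL230W). The wild-type arrays are labelled 0, 3, 5, 7 and 9 hours and 1 day, the deletion arrays 0, 2, 5, 7 and 9 hours and 1 day. The labels give neither the medium, nor the event from which the hours were counted, nor the number of cultures behind a strain. No time point was repeated, and 0 and 3 hours are different times, not replicates. No test was therefore run on the 3 arrays, and a difference has no replicate error.

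Yeast growing on glucose ferments it and represses the genes of respiration and of the use of other carbon sources. As glucose runs down, high-affinity hexose transporters, glycogen and trehalose genes and stress protection genes are known to be induced, through the kinase Snf1, the activators Msn2 and Msn4 and, for respiration, the Hap complex. When glucose is gone, cells turn to the ethanol they have made, which needs respiration, the glyoxylate cycle and gluconeogenesis, and transcription of ribosomal protein genes falls. The question put to the 3 arrays is which genes had changed at 5 hours, before the large shift in expression between 5 and 7 hours.

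Each value is a log2 ratio to the reference, with the median of every array set to 0. The direction of the ratios is not stated in the sources used here. Sample over reference is likely, because with that reading USV1 lies lower in the deletion than in wild type at each of the 5 shared times. A value is the share of a gene in the RNA of a whole culture, so a change in every cell and a change in some of the cells cannot be told apart. The change of a gene is its 5-hour value minus the mean of its 0-hour and 3-hour values. A gene was called higher where its 5-hour value lay at least 2-fold (1 on the log2 scale) above both earlier arrays, and lower where it lay at least 2-fold below both. Of 6100 open reading frames in the table, 5783 had a value on all 3 arrays, 56 had no 5-hour value, 254 had only 1 earlier value and 7 had none.

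At 5 hours 76 genes were called higher (1.31% of 5783) and 45 lower (0.778%). Of all 5783 genes 49.97% had a change above 0. After quantile normalization of the arrays the split was 235 higher to 266 lower. The SD over genes of the change was 0.50, and the SD of 3 hours minus 0 hours, in which no 5-hour value takes part, was 0.48. Between those earlier arrays 84 of 5832 genes (1.44%) stood 2-fold or more higher at 3 hours, and 164 (2.81%) 2-fold or more lower. Against 1 array at a time, 4.23% of genes stood 2-fold or more higher and 4.83% lower at 5 than at 0 hours, and 2.96% higher and 1.77% lower at 5 than at 3 hours. Changes of called genes ran from 1.02 to 2.71 among the higher and from -1.04 to -3.40 among the lower, and 8 of the higher and 3 of the lower reached 4-fold. The earlier arrays were less than 2-fold apart for 74 of the 76 higher and 41 of the 45 lower genes. Just inside the threshold lay UBP16 and MIA40, 1.0 above the nearer array, and HIS1 and HST2, 1.0 below it. Just outside lay IGD1, SPS19 and TGL2 at 0.99 and CYS3 and ANY1 at -0.99.

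**Figure D1:**
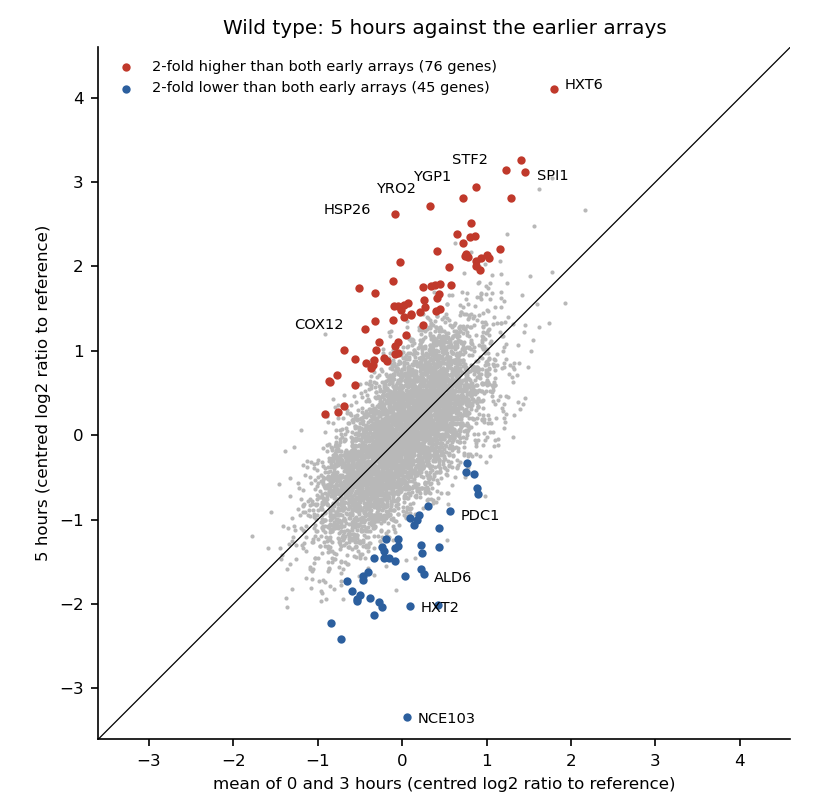
Centred log2 ratio to the reference at 5 hours (vertical axis) against the mean of 0 and 3 hours (horizontal axis) for the 5783 genes with values on the 3 wild-type arrays. Each point is a gene, the line marks equal values, red points are the 76 genes at least 2-fold above both earlier arrays and blue points the 45 at least 2-fold below both. NCE103 lies lowest of all at 5 hours, and HXT6 highest among the called genes.

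The USV1 gene itself, which encodes a zinc finger protein, stood at -0.57, 0.50 and 0.28 at 0, 3 and 5 hours and was not called. Its large values came after the compared times, with 4.40, 3.94 and 2.59 at 7 hours, 9 hours and 1 day. In the strain that lacks it the spot read -1.0, -2.46 and -1.40 at 0, 2 and 5 hours and 1.14, -0.98 and -0.29 at 7 hours, 9 hours and 1 day.

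Hexose transporters of budding yeast carry glucose into the cell with different affinities, and the level of glucose sets which of them are made. HXT6 stood at 0.51 at 0 hours, 3.08 at 3 hours and 4.10 at 5 hours. HXT4 stood at 0.25, 1.06 and 2.38 on the same arrays, and HXT2 at -0.12, 0.30 and -2.02. HXT6 and HXT4 were thus called higher, with changes of 2.30 and 1.72, whereas HXT2 was called lower, with a change of -2.11. All 3 are known as transporters made at low glucose. HXT7, nearly identical to HXT6, had no 0-hour value and stood at 2.63 at 3 hours and 4.33 at 5 hours, and spots of the pair can bind both transcripts. HXT6 had moved further between 0 and 3 hours (2.57) than between 3 and 5 hours (1.02). HXT1, the low-affinity transporter made at high glucose, stood at 0.91, -0.30 and -0.64 and was not called, since its 3-hour and 5-hour values were close. HXT3 stood at 0.04, 1.03 and 1.55 and HXT5, which is known from slow growth, at -0.19, 0.48 and -0.16, and neither was called. Of 11 measured transporters and glucose sensors 2 were called higher (18.2%, against 1.31% of all genes) and 1 lower (9.09%, against 0.778%). The median change was 0.11, against 0 for all genes. It was 0.03 against 0 hours alone and 0.405 against 3 hours alone.

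On later arrays HXT6 and HXT4 were high and HXT2 low. HXT6 stood at 6.86 at 7 hours and HXT4 at 3.06, while HXT2 stood at -2.86 at 7 hours, -3.12 at 9 hours and -3.74 at 1 day. HXT5, close to 0 on the 3 early arrays, stood at 5.61 at 7 hours.

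Regulators of glucose repression were for the most part close to their earlier values. Of 22 measured genes 1 was called higher (4.55%, against 1.31% of all genes) and 1 lower (4.55%, against 0.778%). The median change was 0.06, and 1 call in a list of 22 does not set it apart. The higher gene was HAP4, the regulated subunit of the Hap activator of respiratory genes, at -0.37, 0.42 and 1.54, a change of 1.52 and an upward step on each array. The lower gene was MIG3, a zinc finger protein related to the glucose repressor Mig1, at 0.97, -0.09 and -1.32. MIG1 stood at 0.82, 0.64 and 0.25 and MIG2 at -0.19, 0.39 and -0.08. CAT8, the activator of gluconeogenic genes, stood at -1.13, -1.21 and -1.34, and at 2.33 only at 7 hours. SUC2, the invertase gene that glucose represses, stood at 0.28, 0.12 and 0.32. Neither CAT8 nor SUC2 was called. Of 21 regulators of the protein kinase A and stress pathways 0 were called at 2-fold in either direction. As 2.09% of all genes were called, this does not set the 21 regulators apart. The largest change among them was that of SOK2, a transcription factor of the protein kinase A pathway, at 0.71, -0.85 and -1.83, a change of -1.76 whose difference from 3 hours was -0.98. The stress activator MSN2 stood at 0.70, -0.06 and -0.52, its relative MSN4 at -0.02, 0.74 and 0.87, and the kinase gene SCH9 at 0.38, 0.11 and -0.49.

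The respiratory list held more called genes than any other of the 40 lists. It takes in subunits that pass electrons to oxygen or make ATP in the mitochondrial inner membrane, and the ATP synthase regulators INH1 and STF2. Of 37 measured members 10 were called higher (27.0%) and 0 lower, against 1.31% of all genes called higher. A change above 0 was seen in 36 of the 37, against 49.97% of all genes. The median change was 0.68. The members' median stood at 0.08 at 0 hours, 0.62 at 3 hours and 1.10 at 5 hours, so that a step between 0 and 3 hours preceded the one to 5 hours. At 7 hours it stood at 2.39. The values differed among members, from -0.16 for COX9 to 1.91 for STF2.

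STF2, which is known as a stabilizing factor of the ATP synthase with its inhibitor, stood at 1.21, 1.26 and 3.14. INH1, the inhibitor of ATP hydrolysis by that enzyme, stood at 0.49, 1.13 and 2.52. Of the ATP synthase subunits, ATP4 of the stator stalk stood at -0.86, -0.52 and 1.01, ATP17 at 0.25, 1.20 and 2.28, and ATP3, the gamma subunit, at 0.07, 0.62 and 1.77. All of these 5 genes were called higher, which by the rule makes the 5-hour array the highest of the 3. The catalytic subunits ATP1 and ATP2 moved less, with changes of 0.64 and 0.43, and were not called.

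Among subunits of cytochrome c oxidase, COX12 stood at -0.55, -0.33 and 1.26 and COX4 at 0.12, 0.65 and 1.78, and both were called. In the cytochrome bc1 complex QCR2 stood at -0.99, -0.56 and 0.71, QCR9 at 0.11, 0.41 and 1.60, and CYT1, cytochrome c1, at -0.35, 0.32 and 1.48. Subunits of one complex did not move equally: the changes of QCR7, QCR10 and COR1 were 0.62, 0.62 and 0.68, and that of RIP1, the Rieske iron-sulfur protein, was 0.47. CYC1, the main cytochrome c, stood at -0.26, 0.02 and 0.21, and at 0.22 at 7 hours, and reached 2.89 only at 9 hours.

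Of 67 measured genes of the mitochondrial ribosome, which makes the respiratory subunits encoded in mitochondrial DNA, 3 were called higher (4.48%) and 0 lower. Of all genes 1.31% were called higher. A change above 0 was seen in 57 of the 67, against 49.97% of all genes. The median change was 0.46, and the median stood at 0.17, 0.33 and 0.66. RSM10 stood at 0.47, 0.68 and 1.78, MRPL16 at 0.86, 0.88 and 2.0, and MRPL28 at -0.05, -0.13 and 0.96. After 5 hours the median stood at 0.79 at 7 hours and 0.69 at 9 hours, and at 0.22 at 1 day it was back near its early level.

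In the tricarboxylic acid cycle 1 of 17 genes was called higher (5.88%, against 1.31% of all genes) and 0 lower. The median change was 0.26. The called gene was CIT1, the mitochondrial citrate synthase, at 1.16, 1.15 and 2.21. The succinate dehydrogenase genes SDH1 (-0.54, -0.20 and 0.70) and SDH4 (0.59, 1.22 and 2.0) had changes of 1.07 and 1.09 but lay under 2-fold above the 3-hour array. Called genes outside the lists included further mitochondrial proteins. OM45, of the outer membrane, stood at 0.59, 1.02 and 2.35, MIC27, of the inner membrane organizing complex, at -0.15, 0.29 and 1.57, and the copper chaperone COX17 at -0.08, -0.14 and 1.37. MIA40, of the import of proteins into the intermembrane space, stood at 0.10, -0.21 and 1.10. These 4 were picked after their values were seen, and their number says nothing of mitochondrial genes as a group.

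Genes of gluconeogenesis and the glyoxylate cycle, needed for growth on ethanol, had 0 of 12 measured members called in either direction. As 2.09% of all genes were called, 0 of 12 does not set the list apart. Its median change was 0.23. FBP1, fructose-1,6-bisphosphatase, stood at -0.64, -0.38 and 0.19, PCK1, phosphoenolpyruvate carboxykinase, at 0.06, -0.08 and -0.01, and MLS1, malate synthase, at -0.84, -0.10 and -0.16. At 9 hours the same genes stood at 7.34, 6.0 and 5.70. ICL1 had no 3-hour value and stood at -0.01 at 0 hours and 0.27 at 5 hours, and the lactate permease JEN1 had no 5-hour value. Peroxisomal beta-oxidation genes had a median change of 0.19, and 2 of 19 were called lower (10.5%, against 0.778% of all genes). They were IDP3, a peroxisomal isocitrate dehydrogenase (-0.60, -0.17 and -1.93), and OAF1, an activator of beta-oxidation genes (0.24, 0.37 and -0.84).

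**Figure D2:**
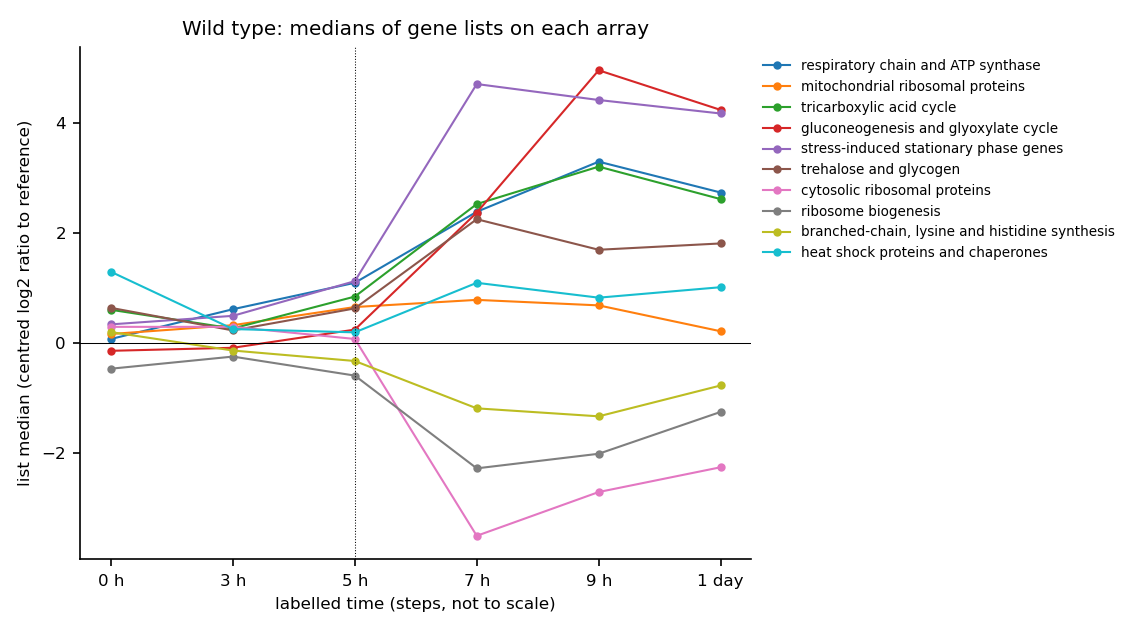
Medians of 10 gene lists (vertical axis, centred log2 ratio to the reference) on the 6 wild-type arrays, in order of labelled time (horizontal axis, not to scale). The dotted line marks 5 hours. At that time the respiratory list (1.10) and the stress-induced list (1.13) stood above 0 hours, the gluconeogenesis list was at 0.25 and the ribosomal protein list at 0.08.

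Stress-induced stationary phase genes, which encode small heat shock proteins, hydrophilins and cell surface proteins, had the highest median change of the 40 lists, at 0.75. Of 22 measured members 5 were called higher (22.7%, against 1.31% of all genes) and 0 lower. A change above 0 was seen in 18 of the 22, against 49.97% of all genes. HSP26, a small heat shock protein, stood at -0.14, -0.04 and 2.62. It had the largest rise among all 5783 genes, 2.71 or 6.54-fold, and its earlier values lay within 0.10 of each other. YGP1, a secreted glycoprotein, stood at 0.65, 1.09 and 2.94, and SPI1, a cell wall protein, at 1.24, 1.66 and 3.12. DDR2 stood at 0.40, 0.72 and 1.99 and GAD1, glutamate decarboxylase, at 0.52, 1.21 and 2.36. HSP12, a membrane-protecting stress protein, had no 3-hour value and could not be called. It stood at -0.61 at 0 hours and 3.66 at 5 hours.

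Other members of the list were not called. The hydrophilin genes GRE1 (-0.57, 0.52 and -0.17) and SIP18 (-0.51, -0.60 and 0.19) had changes of -0.14 and 0.74, and stood at 4.96 and 3.15 at 7 hours. HSP30, which acts at the plasma membrane under stress, stood at -0.04, 1.23 and 1.66, and at 8.41 at 7 hours. Outside the list, YRO2, a relative of HSP30, was called with the second largest rise among all genes, at -0.01, 0.68 and 2.72, and stood at 3.56 at 7 hours. CTT1, the cytosolic catalase, stood at 0.51, 0.31 and 1.63. It was the 1 called gene among 25 of oxidative stress defence (4%, against 1.31% of all genes called higher). The median change of that list was 0.16.

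Heat shock proteins and chaperones at large had a median below 0. None of the 21 measured genes was called at 2-fold, against 2.09% of all genes, and the median change was -0.48. The list's median stood at 1.30 at 0 hours, 0.26 at 3 hours and 0.20 at 5 hours, so the difference lay between 0 and 3 hours. Against 3 hours alone it was 0.23. STI1, a cochaperone of Hsp90, stood at 2.23, -0.01 and 0.20, and HSP42 at 2.18, 0.44 and 0.81. SSA4, a stress-induced Hsp70, stood at 0.55, 0.30 and 1.46 and was not called, its difference from the 0-hour array being 0.91.

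Glycogen and trehalose are the storage carbohydrates that yeast lays down as glucose falls. Of 22 measured genes 3 were called higher (13.6%, against 1.31% of all genes) and 0 lower. A change above 0 was seen in 18 of the 22, against 49.97% of all genes, and the median change was 0.37. All 3 called genes belong to glycogen. GSY1 and GSY2, both glycogen synthases, stood at 1.09, 0.97 and 2.10 and at 0.71, 0.85 and 2.11. GDB1, the debranching enzyme, stood at 0.15, 0.28 and 1.46. PGM2, phosphoglucomutase, which supplies both pathways, stood at 2.10, 1.44 and 3.05 and missed the threshold against 0 hours. The branching enzyme gene GLC3 (1.28, 0.05 and 0.43) and the phosphorylase gene GPH1 (-0.34, -0.19 and -0.03) were not called. Trehalose genes were not called, with TPS1 at 1.09, 0.82 and 1.28, TPS2 at 1.28, 0.66 and 1.06, NTH1 at 0.78, -0.52 and 0.84 and ATH1 at -0.79, -0.39 and -0.13. NTH1 stood 1.36 above its 3-hour value but only 0.06 above its 0-hour value.

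**Figure D3:**
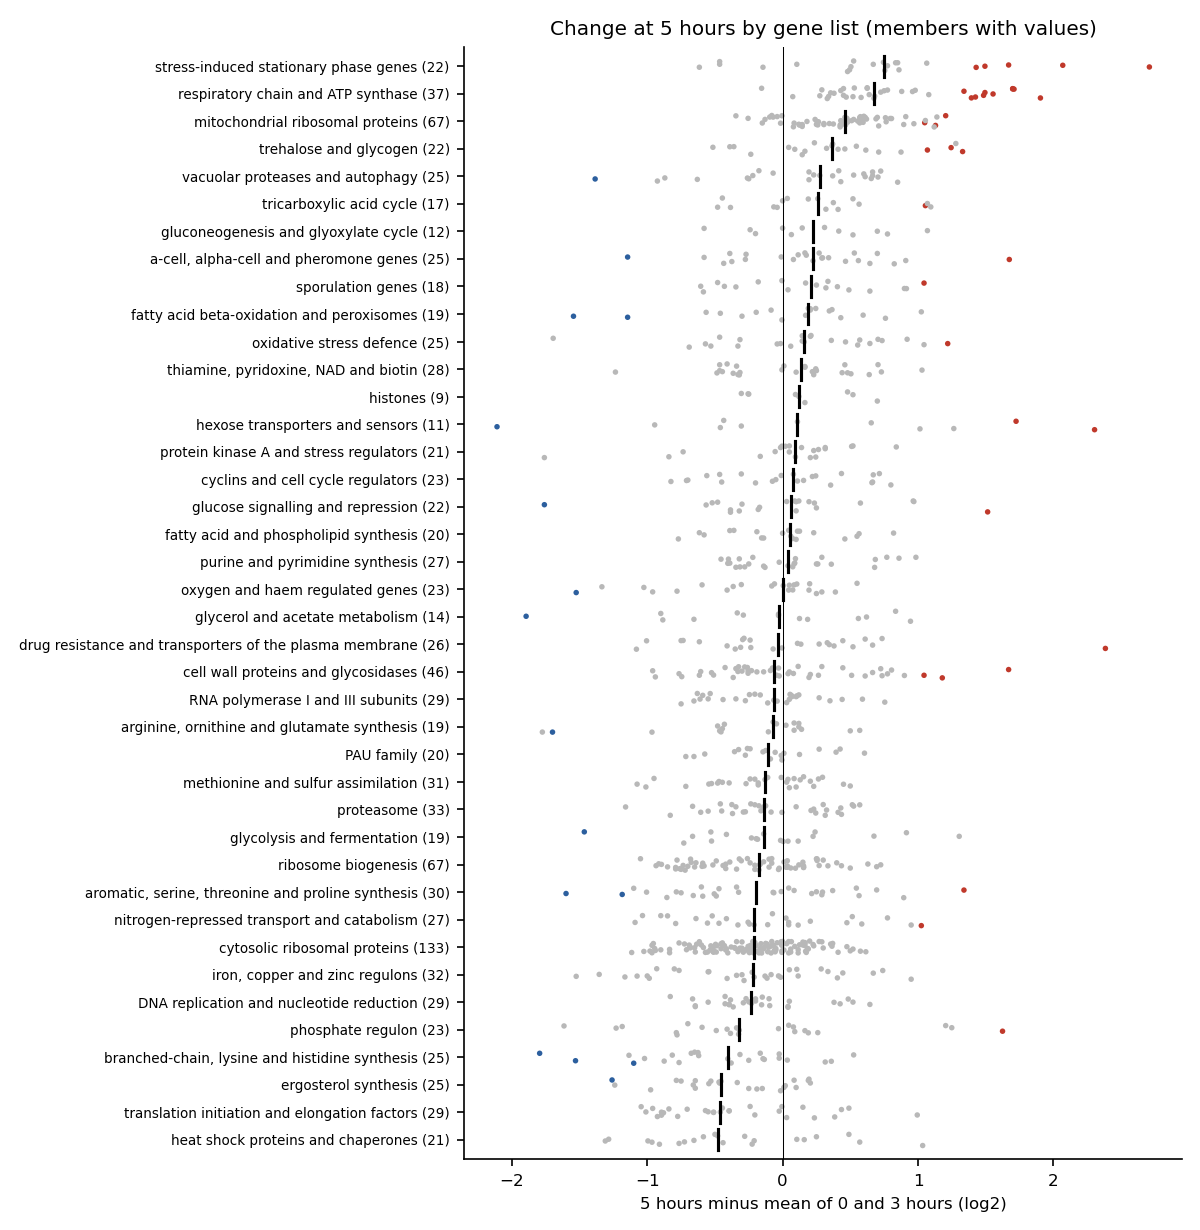
Change at 5 hours (horizontal axis, 5 hours minus the mean of 0 and 3 hours, log2) of the measured members of 40 gene lists, ordered by their medians (black bars), with the number of measured members in brackets. Each point is a gene, red where called higher, blue where called lower and grey otherwise. The stress-induced, respiratory, mitochondrial ribosomal and glycogen and trehalose lists lie farthest to the right, with medians of 0.75, 0.68, 0.46 and 0.37.

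Glycolytic genes showed no common change. Of 19 measured genes of glycolysis and fermentation 0 were called higher and 1 lower (5.26%, against 0.778% of all genes). The median change was -0.14, or 0.065 against 3 hours alone. The lower gene was PDC1, the main pyruvate decarboxylase of ethanol production, at 0.95, 0.18 and -0.90, with a step down on each array. PDC5 stood at 0.36, -1.18 and -1.14. HXK1, a hexokinase that glucose represses, stood at 2.05, 1.18 and 2.92, and GLK1, glucokinase, at 1.28, 0.71 and 1.67. HXK2, the hexokinase of growth on glucose, stood at 1.21, 0.48 and 1.04. For all 3 kinases the 3-hour array was the lowest and none was called. ADH1, the fermentative alcohol dehydrogenase, stood at 0.21, -0.18 and 0.13, and ADH2, which oxidizes ethanol, at 0.63, 0.59 and 0.32; the 2 genes are close in sequence and can share signal. ALD6, the cytosolic acetaldehyde dehydrogenase, was called lower at 1.14, -0.63 and -1.64, and 1.77 of its fall lay between 0 and 3 hours.

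The other genes with the largest rises had various functions. SOL4, a 6-phosphogluconolactonase, stood at 1.17, 1.65 and 3.26. RTC3 stood at 0.88, 0.57 and 2.81, MSC1 at 0.04, 0.79 and 2.18 and YER158C at 0.36, -0.41 and 2.05. GAL3, the galactose sensor of the galactose pathway, stood at -0.49, 0.27 and 1.83. NIC96, a protein of the nuclear pore, stood at -1.24, 0.21 and 1.75, and CFT1, a subunit of the mRNA cleavage and polyadenylation factor, at -0.37, -0.28 and 1.68. The last pair did not stay high, with 0.33 and -0.09 at 7 hours, while the others named here stood between 1.37 and 6.19.

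Among the genes called lower, NCE103, carbonic anhydrase, had the largest change, at 2.03, -1.92 and -3.34. It was also the most variable between the earlier arrays, which lay 3.95 apart, and it stood at -2.88 at 7 hours and 2.07 at 9 hours. YLR108C stood at 1.30, -0.45 and -2.01. TRM11, a tRNA methyltransferase subunit, stood at -0.61, -0.85 and -2.41 and UPA2 at -0.15, -0.41 and -1.97. SPC72, of the spindle pole body, stood at 0.48, -0.04 and -1.59, MAK31, a subunit of an N-terminal acetyltransferase, at -0.57, 0.09 and -2.03, and YCRX08W, which has no name in the table used here, at 0.51, -0.05 and -1.39.

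Amino acid synthesis held several of the lower genes. Of 25 measured genes of branched-chain, lysine and histidine synthesis 3 were called lower (12%) and 0 higher, against 0.778% of all genes called lower. A change above 0 was seen in 4 of the 25, against 49.97% of all genes. The median change was -0.40, or -0.48 against 0 hours alone and -0.18 against 3 hours alone. Of the 25, 10 stood higher at 5 than at 3 hours. BAT1, the mitochondrial branched-chain aminotransferase, stood at 0.76, 0.10 and -1.10. LYS2, aminoadipate reductase, stood at -0.23, -0.44 and -2.13 and HIS1, the first enzyme of histidine synthesis, at 0.87, 0.67 and -0.33. BAT1 and HIS1 stood lower still at 7 hours, at -4.02 and -2.61, whereas LYS2 stood at -0.01. ILV5 and ILV3 of branched-chain synthesis fell mainly between 0 and 3 hours, from 1.5 to 0.07 and from 1.47 to -0.17, and were not called at 5 hours. In the list of aromatic, serine, threonine and proline synthesis 2 of 30 were called lower (6.67%) and 1 higher (3.33%, against 1.31% of all genes). The list's median was -0.20. GLY1, threonine aldolase, stood at 1.34, 0.46 and -0.70, TRP4 at 0.79, 0.72 and -0.43, and PRO1, the first enzyme of proline synthesis, was the higher gene at -0.01, 0.21 and 1.44. CAR1, arginase, which breaks arginine down rather than making it, was called lower at 0.49, -0.43 and -1.67. It was the 1 called gene of 19 (5.26%) in the list of arginine, ornithine and glutamate synthesis. That list had a median change of -0.07.

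No member of the 4 lists of cytosolic ribosomes and their synthesis, polymerases I and III and translation factors was called. Of 133 measured cytosolic ribosomal protein genes 0 were called at 2-fold in either direction, against 2.09% of all genes. A change above 0 was seen in 36 of them, against 49.97% of all genes, and the median change was -0.21. The median stood at 0.30 at 0 and 3 hours and 0.08 at 5 hours, and at -3.50 at 7 hours. Values of paired ribosomal protein genes are uncertain, since spots can bind both transcripts. RPL5 stood at 1.51, 0.90 and 0.09 and RPS3 at 0.46, 0.39 and 1.0, so members moved both ways. None of 67 ribosome biogenesis genes was called, with a median change of -0.18. The same held for 29 RNA polymerase I and III genes, with -0.06, and 29 translation factor genes, with -0.46. With 2.09% of all genes called, 0 of 29 does not set a list apart. The median of the RNA polymerase genes changed sign with the baseline, at 0.09 against 0 hours alone and -0.25 against 3 hours alone.

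The lists named next had 1 called member each, from 3.70% to 5.56% of those measured, against 2.09% of all genes called. With lists of this size, 1 call does not set a list apart. In ergosterol synthesis the regulator UPC2 (-0.02, -0.14 and -1.34) was called lower, 1 of 25, with a list median of -0.46. That median was -0.615 against 0 hours alone and -0.20 against 3 hours alone. Among oxygen and haem regulated genes DAN1, a mannoprotein of anaerobic cells (0.69, -0.24 and -1.30), was the 1 of 23. In the phosphate regulon PHM6 (0.00, -0.19 and 1.53) was called higher, 1 of 23, with a list median of -0.32. ATG4, an autophagy protease (-0.60, -0.41 and -1.89), was called lower, 1 of 25 genes of vacuolar proteases and autophagy. DAL3, of allantoin use (-0.06, -0.03 and 0.98), was 1 of 27 genes repressed by good nitrogen sources, and RIM4, a meiotic regulator (0.43, 0.46 and 1.49), 1 of 18 sporulation genes. In all, 17 of the 40 lists had no called member, and 20 had a median above 0. With 2.09% of all genes called, a short list without a called member is not set apart by that. No member was called among cyclins and cell cycle regulators, histones, DNA replication genes and the proteasome, with medians of 0.08, 0.12, -0.23 and -0.14. The proteasome median changed sign with the baseline, at -0.26 against 0 hours alone and 0.12 against 3 hours alone.

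Markers of mating type were examined as markers of other cells. All 6 a-cell genes had a change above 0, from 0.27 to 1.67, and 1 was called, STE2, the receptor for alpha-factor, at -0.19, -0.46 and 1.35. The a-factor genes MFA1 and MFA2 stood at 0.53, 1.01 and 1.68 and at 0.46, 0.53 and 1.14. The 4 alpha-cell genes ran from -0.39 to 0.53 and the 10 sporulation markers from -0.60 to 0.92, and 0 of either was called. Ratios to a reference give no absolute level, so none of these markers can be said to be absent. AGA1, an agglutinin subunit of the cell wall list, was called higher at -0.77, -0.76 and 0.28, as was CHS1, a chitin synthase, at -0.42, -0.28 and 0.83. PRM1, a membrane protein of mating cells, was called lower at 0.32, 0.07 and -0.95.

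Most genes called higher stayed high. By 7 hours 34 of the 76 had moved at least 2-fold further up from 5 hours, 31 lay within 2-fold of their 5-hour value and 11 had come back at least 2-fold. On the 7-hour, 9-hour and 1-day arrays alike, 45 of the 74 with values lay at least 2-fold above both early arrays. The shares of all genes that moved or stayed so were not counted, so these counts have no background beside them. The SD over genes was wider on the 7-hour array (1.46) than on the 5-hour array (0.68). The median of the 76 genes stood at 0.11, 0.30 and 1.58 at 0, 3 and 5 hours and at 2.29, 2.74 and 2.17 at 7 hours, 9 hours and 1 day. The 5-hour array both chose the genes and enters the differences from 5 hours, so movement back is a description of the chosen genes. The 0-hour and 3-hour arrays also chose them and are the baseline for the 45 of 74. That count too only describes the chosen genes, and both limits hold for the genes called lower.

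Among the genes called lower, 8 of the 45 by 7 hours had moved at least 2-fold further down, 16 lay within 2-fold, 20 had come back and 1 had no value. Of the 38 with values on all late arrays 9 lay at least 2-fold below both early arrays on each of them. Here too the shares of all genes were not counted. The median of the 45 stood at 0.01, -0.19 and -1.46 at 0, 3 and 5 hours and at -0.32, -0.80 and -0.44 later. HXT2, BAT1, PDC1, TRM11 and SAH1, which breaks down S-adenosylhomocysteine, stayed at or below -2.34 on the 3 late arrays.

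**Figure D4:**
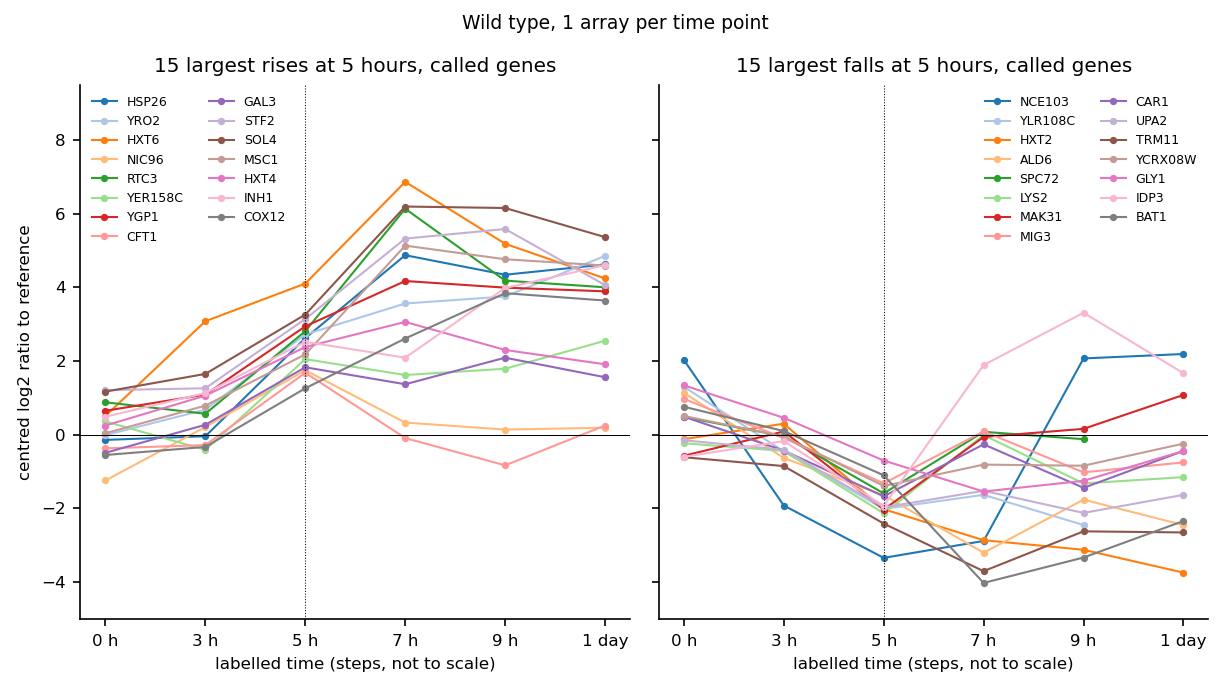
Centred log2 ratio to the reference (vertical axis) on the 6 wild-type arrays in order of labelled time (horizontal axis, not to scale) for the 15 called genes with the largest rises (left) and the 15 with the largest falls (right) at 5 hours, which the dotted line marks. Each line is a gene, with 1 array per point. Most lines on the left stay up after 5 hours, NIC96 and CFT1 being back below 0.4 at 7 hours, while lines on the right part, IDP3 reaching 1.89 at 7 hours and BAT1 -4.02.

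Some genes stood apart at 5 hours from every other wild-type array. Of 5550 genes with values on all 6 arrays, 6 lay at least 2-fold above each of the other 5 (0.108%) and 14 at least 2-fold below each (0.252%). The 6 were CFT1, NIC96, STE2, PRO1, KAP114, a nuclear import receptor, and CHS1. KAP114 stood at -0.07, 0.12 and 1.40 at 0, 3 and 5 hours and between -0.04 and 0.21 afterwards. Of the 14, MAK31 and YNR064C went lowest, at -2.03 and -2.23. YIL168W stood at -1.94 at 5 hours and PCA1, a cadmium exporter, at -1.31, against 0.62 and 0.48 at 7 hours. Genes that went on to be high later were also among the 14. IDP3 stood at -1.93 at 5 hours and 1.89 at 7 hours, BOP2 at -1.45 and 2.66, XYL2, a xylitol dehydrogenase, at -1.62 and 1.80, and RRI2 at -1.23 and 1.34. Each of these values rests on the 1 array.

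The strain lacking USV1 gives a separate measurement of the same genes, with no array in common, at 0, 2 and 5 hours. Its 5-hour array had already passed its large shift, with 1044 genes (17.6% of 5919) at least 2-fold above both its earlier arrays and 1134 (19.2%) at least 2-fold below both. Of the 70 genes called higher in wild type that had deletion values, 45 were higher by this rule in the deletion at 5 hours and 2 were lower. This share of 64.3% stands against 17.6% of all genes. Their median change in the deletion was 1.78. The strains differ in genotype and in how far their courses had gone by 5 hours, and these cannot be told apart.

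The 43 genes called lower that had deletion values were spread more evenly. In the deletion 14 were lower (32.6%, against 19.2% of all genes) and 8 were higher (18.6%, against 17.6%), and 25 had a change below 0. Of the 15 that belong to a gene list 7 were lower and 2 higher, and of the 28 in no list 7 were lower and 6 higher. For genes called higher, 26 of 33 in a list and 19 of 37 in no list were higher in the deletion. The lists were chosen with earlier results of these data known, so this split is only a description. HXT2 stood at -0.34, -0.51 and -2.84 at 0, 2 and 5 hours of the deletion, and BAT1 at 0.75, 0.49 and -3.57. Of the 10 respiratory genes called in wild type 9 were higher there, as were all 3 glycogen genes and all 5 stress-induced genes. Such rises were not particular to called genes. Over all members the median changes in the deletion were 1.825 for the respiratory, 3.33 for the glycogen and trehalose and 4.05 for the stress-induced list. NIC96 and CFT1 stood at 0.11 and -0.15 at 5 hours of the deletion, within 2-fold of at least 1 of its earlier arrays.

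**Figure D5:**
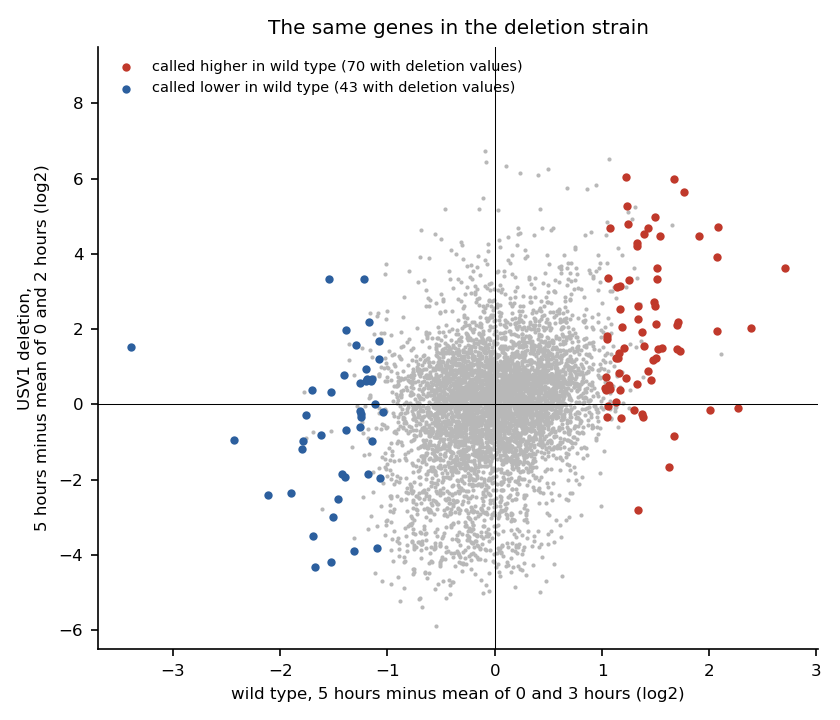
Change of each gene in the USV1 deletion (vertical axis, 5 hours minus the mean of 0 and 2 hours, log2) against its change in wild type (horizontal axis, 5 hours minus the mean of 0 and 3 hours, log2). Grey points are all genes with both values, red points the 70 called higher and blue points the 43 called lower in wild type. Of the red points 45 were at least 2-fold higher in the deletion, whereas the blue points lie on both sides of 0.

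At 2 hours, before its shift, the deletion showed some of the rises. Of 70 genes called higher in wild type with values, 6 (8.57%) were at least 2-fold higher at 2 than at 0 hours of the deletion and 1 lower, where 1.31% of all 5943 genes were at least 2-fold higher, and the median difference was 0.17. HSP26 stood at 0.10 and 1.46, RTC3 at 0.17 and 2.04, and SPI1 at 0.27 and 1.79. HSP12, not callable in wild type, stood at -1.42 and 1.71, and HXT7 at 0.15 and 2.77. Of 44 genes called lower, 2 stood 2-fold or more higher at 2 hours and 0 stood 2-fold or more lower, and the median difference was 0.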

How the data were processed

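The values analysed are log2 ratios between sample and reference RNA that the authors deposited, of unstated direction, 1 per open reading frame and array, for 12 arrays of 2 colours. Not given in the sources used here are the scanner, background correction, spot filter, normalization, dyes and log base, which was taken as 2. Signal over background is unknown, and the number of arrays limits the precision. Columns of other samples numbered 0. Systematic names were matched to locus tags of the RefSeq table of assembly R64, for names and neighbours only. It named 5592 of 6100 genes. Promoter sequences were not analysed here. Arrays were centred to a median of 0 (Python 3.11.15, pandas 2.3.3). The call rule was run on simulated data with planted shifts above the threshold and noise far smaller than the SD between the earlier arrays. That run checks the code and gives no error rate for the calls. The genes to compare and the 40 gene lists, from textbook knowledge, were chosen with earlier results of these data known, and 21 list entries had no match. Genes named were USV1 and a list of glucose and stress genes, the 15 largest changes per direction among called genes, the 2 largest called members per list and up to 6 per direction that stood apart at 5 hours or came back by 7 hours. Other called or listed genes were named after their values were seen. Alternatives were the centring, the baseline array, the fold and the genes kept.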

Additional observations from a re-analysis of the deposited data

Results flagged for a closer look

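A set of 10 genes was called in opposite directions at 5 hours in the 2 strains, each by at least 2-fold from both earlier arrays of its own strain. Of the genes called lower in wild type, 8 of 43 (18.6%) were higher in the deletion, where 17.6% of all genes were, and of those called higher 2 of 70 (2.86%) were lower, where 19.2% of all genes were. The first share was close to that of all genes and the second below it. With 1 array per strain and time the difference was not tested, and the later arrays of wild type are given because the deletion had passed its shift by then. Higher in wild type and lower in the deletion were PRO1 (changes of 1.34 and -2.79) and PHM6 (1.62 and -1.66), which stood at -2.21 and -1.07 at 7 hours of wild type. NCE103 was lower in wild type (-3.40) and higher in the deletion (1.53). Its starting levels were far apart, with 2.03 for wild type but -2.3 for the strain lacking USV1 at 0 hours. Wild type then read -1.92 at 3 hours and -3.34 at 5 hours. The other strain read -1.38 at 2 hours and -0.31 at 5 hours. The opposite calls of NCE103 were thus made against unlike baselines. Lower in wild type and higher in the deletion, and above 1 at 7 hours of wild type, were IDP3 (-1.54 and 3.33), BOP2 (-1.29 and 1.58), XYL2 (-1.22 and 3.33) and RRI2 (-1.17 and 2.18). ATG4 (-1.38 and 1.98), AIM26 (-1.07 and 1.70) and DNL4 (-1.08 and 1.21) made up the rest.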

How the results depend on the processing

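Numbers of called genes depended on the rule and the baseline. Of the 76 higher and 45 lower genes, 66 and 45 were still called with the values as deposited, which called 66 and 54. Against 0 hours alone 251 and 287 passed, against 3 hours alone 174 and 104, and on the mean of both arrays 143 and 127, each with all 76 and 45 among them by construction. A threshold of 1.5-fold gave 357 and 312, and 3-fold 9 and 2. Scaling the 3 arrays to equal spread gave 31 (30 of the 76) and 27 (23 of the 45). Quantile normalization over 12 arrays, 7 of them past the shift, gave 235 (64 of the 76) and 266 (44 of the 45). With genes on all 12 arrays (68 and 37), and without genes that overlap another gene or have no name (74 and 42, chosen after seeing the data), counts moved by less than 1.5 times. The number of lists with a median above 0 was 20 and ran from 17 to 23. For called genes the call rule fixed the sign against either earlier array alone, and the values as deposited moved changes too little to alter it. After quantile normalization no called gene among the 88 genes recomputed changed sign. Among uncalled genes the sign of USV1, HXT5, HXK2, MIG2, ADH1, MLS1, CAT8, TPS2, GLC3 and GRE1 changed under another centring or baseline. PCK1, with a change of 0, went to either side of it. No paired analysis was possible because no time point was repeated and no test was run.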

Other observations

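A group of 4 called genes lay close together by systematic name on the right arm of chromosome IV, a feature noticed after their values were seen. PHM6 (YDR281C), HRQ1 (YDR291W), PRO1 (YDR300C) and CFT1 (YDR301W) had changes of 1.62, 1.33, 1.34 and 2.0, and each had come back by at least 2-fold at 7 hours. The other 12 measured genes of the stretch had a median change of 0.16 and at most 0.58. Positions of the spots on the array were not used here. Of the 254 genes with only 1 earlier value, 14 stood at least 2-fold above it at 5 hours, HSP12 among them, and 21 at least 2-fold below it.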
